A study of Homo sapiens with 9 samples.

Results

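The genes described here are the ephrins and their Eph receptors, the Slit ligands and their Robo receptors, and the FLRT membrane proteins. These families were chosen with earlier results of these data known, and their genes were taken by symbol. There were 32 of them among 22295 entries in the expression table: 8 ephrins, 14 Eph receptors, 3 Slits, 4 Robos and 3 FLRT genes. Expression was measured by RNA-seq of total RNA from U251, an established human glioblastoma cell line, in 3 libraries of each of 3 groups. The sh-Luci-3d cells were infected with a lentivirus carrying a short hairpin RNA against luciferase, a gene that human cells lack, and were harvested at 3 days. The sh-Ptbp1-3d and sh-Ptbp1-7d cells were infected with a lentivirus carrying a hairpin against PTBP1, an RNA-binding protein that regulates splicing, and were harvested at 3 and 7 days. All groups were therefore infected cells of a single line, each infected with a single hairpin, and the study's reprogramming protocol moves infected cells to a neuronal induction medium, without the labels saying so of the cells sequenced. No sh-Luci library was analysed at 7 days. Both sh-Ptbp1 groups carried the same hairpin, and their labels differ in harvest day alone. In that comparison a longer knockdown, the time in culture and the medium cannot be told apart. When sh-Ptbp1-7d is set against sh-Luci-3d, the hairpin differs as well and cannot be told apart from these. The groups are called the control, the 3-day knockdown and the 7-day knockdown below, and "3-day libraries" means the 6 of the control and the 3-day knockdown.

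Ephrins are ligands held on the cell surface, the A class by a lipid anchor and the B class by a membrane-spanning segment, and they bind Eph receptor tyrosine kinases on touching cells, so that signals can pass in both directions. Slits are secreted proteins that repel growing axons and migrating cells through Robo receptors. FLRT proteins span the membrane, bind UNC5 receptors and latrophilins on neighbouring cells, and can bind Robo1 within the same membrane. These families steer axons and cell migration in the developing nervous system, and Eph receptors such as EPHA2 and EPHA3 are known for their expression in glioblastoma.

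Values were FPKM, fragments scaled to transcript length and to the mapped fragments of the library, so levels of different genes can be set side by side. PTBP1, the targeted gene, had a mean of 115.7 FPKM in the control, 63.9 FPKM in the 3-day knockdown and 50.5 FPKM in the 7-day knockdown, with no overlap between any of the groups. Of 7 astroglial and glioma markers, 5 had a mean of at least 1 FPKM in every group, while GFAP and S100B stayed below 1 FPKM on average, and the summed level of the list was 4457 to 4877 FPKM in the 3-day libraries against 1386 to 1509 FPKM in the 7-day knockdown. Most of that sum was VIM, the intermediate filament vimentin, which had means of 4381 and 1169 FPKM in the 3-day and 7-day knockdown, and its members went both ways: VIM and CD44, a hyaluronan receptor, fell, and S100B, a calcium-binding protein, rose from 0.115 to 0.797 FPKM (limma, log2 fold change 2.08, adjusted p = 0.00202). The summed level of 8 neuronal markers was 488.5 to 573.2 FPKM in the 3-day libraries and 255.9 to 263.6 FPKM in the 7-day knockdown. TUBB3 (316.9 to 118.2 FPKM) and NEFL (216.2 to 92.7 FPKM) carried most of it and fell, whereas the dendritic microtubule protein MAP2 rose from 20.3 to 38.9 FPKM (log2 fold change 0.94, adjusted p = 0.00058) and SNAP25 had means of 2.68 and 4.32 FPKM with no overlap (adjusted p = 0.0177). Endothelial markers summed to 2.44 FPKM or less and blood and immune markers to 1.18 FPKM or less in any library, with PECAM1 and TEK at or near 0 and CD3E listed at 0 in all 9. Of 5 epithelial markers only KRT8 and KRT18 were above 1 FPKM. The third 3-day knockdown library stood apart: 364 genes were above 0 there alone, against 71 to 121 in each of the other libraries, and STMN2, a neuronal microtubule regulator, was listed at 0 everywhere except there, at 11.5 FPKM. The part of these differences in the results below was not tested. Since the RNA came from bulk cultures, fewer cells with a transcript and less of it per cell cannot be told apart. Nothing in the labels says that the libraries of a group came from separate cultures. The p-values therefore set group differences against a spread estimated from these libraries, which need not be that between separate cultures.

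Of the 32 genes, 24 had a mean of at least 0.1 FPKM over the 9 libraries and were tested, with limma on log2(FPKM + 0.1) and Benjamini-Hochberg adjustment over all 15551 genes that passed the same filter. Because of the added 0.1, fold changes of weakly expressed genes come out too small. A gene was called when the fold change was above 2 with an FDR below 0.05 at 3 days, or below 0.01 in comparisons with the 7-day knockdown, and below, "rose" and "fell" are written of genes past the FDR threshold, whether or not they were called. The 3 comparisons share libraries, so their results are not independent of each other.

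At 3 days, no difference was detected in any of these genes. None of the 24 was called in the 3-day knockdown against the control by limma, none had an unadjusted p below 0.05, and the lowest adjusted p was 0.725. In none of the 24 did the 3 libraries of one group lie wholly above or below those of the other, where 10.8% of all genes tested did, and 0.0129% of all genes (2 of 15551) were called. Their median log2 fold change was 0.02, against 0.01 for all genes. The count stayed at 0 under each of the 18 alternative settings. With so few genes of any kind called, a count of 0 was likely in advance, and its stability says little. The paper listed more genes as different between these groups at the same fold and FDR thresholds. The lack of a detected difference is therefore not evidence that these genes were unchanged.

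At 7 days, Eph receptors, B-class ephrins and FLRT genes were among those higher, and a Slit was lower. In the 7-day against the 3-day knockdown, 5 genes were called higher, namely EPHA2, EPHA3, EFNB3, FLRT1 and FLRT3, where 8.31% of all genes were called higher. SLIT3 alone was called lower, where 5.90% of all genes were. By the FDR alone 11 of 24 rose and 1 fell, beside 20.3% and 15.5% of all genes. The 7-day libraries lay wholly above the 3-day knockdown libraries for 13 of the genes and wholly below for 5, where 35.3% and 27.0% of all genes did so. The median log2 fold change was 0.44 over the 24 genes and 0.09 over all genes. By role, 1 of 10 ligands tested was called higher and 1 lower, 2 of 11 receptors were called higher and 0 lower, and 2 of 3 FLRT genes were called higher and 0 lower. Without the third 3-day knockdown library, the same 6 genes were called, and 8 rose and 1 fell by the FDR alone. Without the second 3-day knockdown library or without the second 7-day library, 7 genes passed the FDR threshold in all, and EPHA4, EPHB4, EFNA5, EFNB1 and FLRT1 no longer did. EPHA4, EPHB4, EFNA5 and EFNB1 passed it under 9, 13, 13 and 8 of 18 alternatives.

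**Figure D1:**
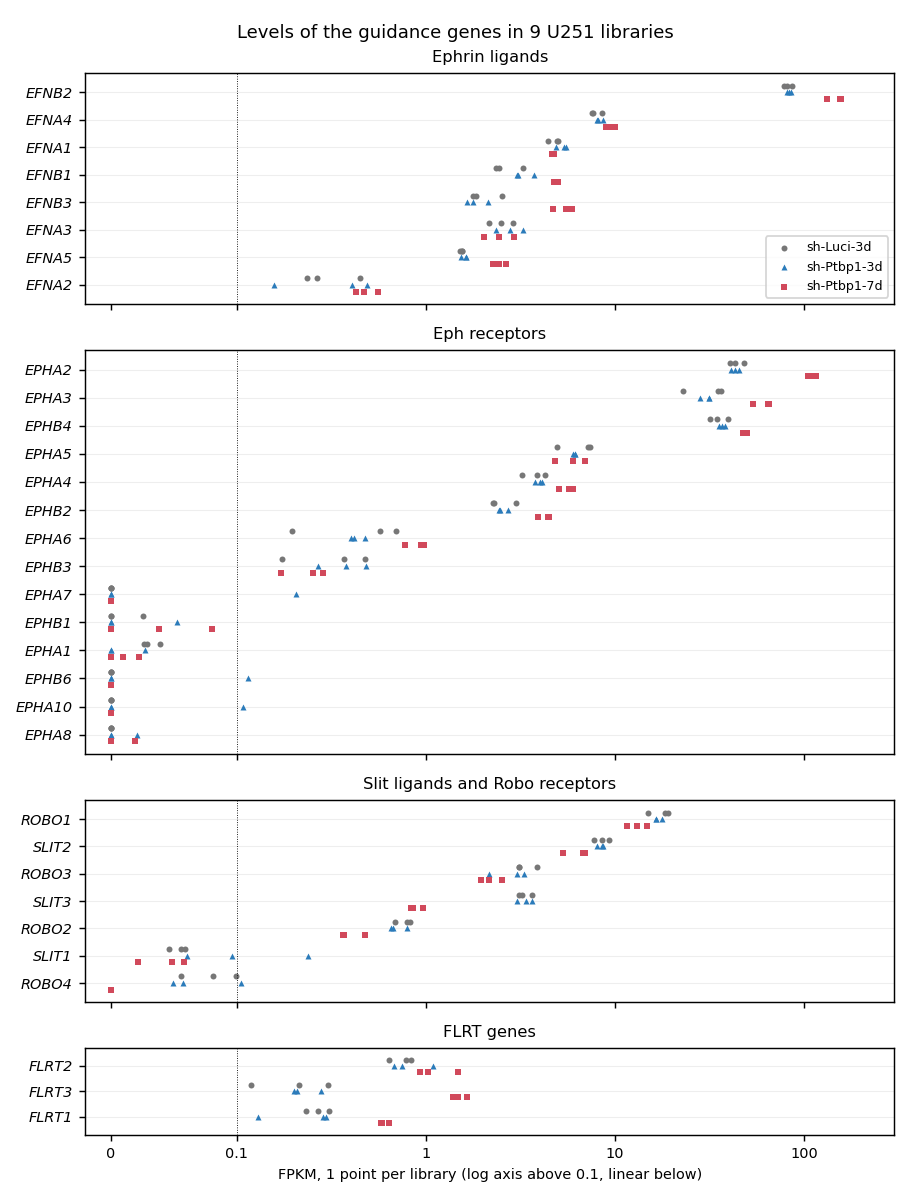
FPKM of all 32 genes in the 9 libraries, 1 point per library, with grey circles for sh-Luci-3d, blue triangles for sh-Ptbp1-3d and red squares for sh-Ptbp1-7d. The axis is logarithmic above 0.1 FPKM (dotted line) and linear below. Among the genes whose red points lie apart are EFNB2, EFNB3, EPHA2, EPHA3 and FLRT3, to the right, and SLIT3 and ROBO2, to the left. Grey and blue points overlap in every gene tested.

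Among receptors, EPHA2, a kinase bound mainly by A-class ephrins, had the highest mean in every group. Its gene lies on chromosome 1 from 16124337 to 16156087 on the minus strand (GRCh38, GENCODE v29). EPHA2 was at 43.2, 40.4 and 47.9 FPKM in the control libraries, at 45.1, 43.2 and 41.3 FPKM in the 3-day knockdown and at 114.8, 104.3 and 110.6 FPKM in the 7-day knockdown. The 7-day libraries were all well above all 6 libraries at 3 days, which overlapped each other. EPHA2 rose 2.54-fold from the 3-day knockdown to the 7-day knockdown, a log2 fold change of 1.35 (standard error 0.08, adjusted p = 4.08e-07), and it was called under all 18 alternative settings.

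The 250 bases before the RefSeq start of EPHA2 are shown because EPHA2 was the most strongly expressed of the called genes and its promoter, alone among 43 promoters of 30 of these genes, held a full cAMP response element. The element, searched on both strands as TGACGTCA, began 51 bases before the start. It was held by 1.85% of 35116 RefSeq promoters of the same length, 250 bases before to 50 after the start (GRCh38.p14). The 1 of 43 here is 2.33%, near that share. Capitals mark it and a GC box, searched as GGGCGG. The stretch is chr1:16156070-16156319, read 5′ to 3′ on the minus strand.
EPHA2: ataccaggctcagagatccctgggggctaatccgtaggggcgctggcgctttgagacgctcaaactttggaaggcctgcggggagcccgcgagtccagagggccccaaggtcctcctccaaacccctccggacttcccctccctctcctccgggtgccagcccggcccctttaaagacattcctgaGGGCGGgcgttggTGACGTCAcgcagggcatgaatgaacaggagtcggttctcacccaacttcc

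EPHA3, a receptor for ephrin-A5, was among the 3 highest receptors. On chromosome 3 from 89107524 to 89482134 on the plus strand, it was at 36.3, 35.1 and 23.0 FPKM in the control, at 28.2, 31.4 and 31.4 FPKM in the 3-day knockdown and at 65.6, 64.2 and 53.5 FPKM in the 7-day knockdown. The 7-day libraries were all above the 3-day libraries, and the third control library was the lowest. EPHA3 rose 2.01-fold over the 3-day knockdown (log2 fold change 1.004, standard error 0.16, adjusted p = 0.000384), just past the fold threshold of 2. EPHA3 was called under 13 of 18 alternatives, with log2 fold changes from 0.92 to 1.11, and fell short of the fold threshold without the first 3-day knockdown library (0.95) and without the first (0.95) or second (0.97) 7-day knockdown library. It also fell short with a pseudocount of 1 and with median-ratio scaling of the libraries.

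EPHB4, the receptor for ephrin-B2, was the third strongly expressed receptor and lies on chromosome 7. Its FPKM was 34.6, 31.8 and 39.8 in the control, 38.3, 36.8 and 35.2 in the 3-day knockdown and 49.9, 49.8 and 47.3 in the 7-day knockdown. EPHB4 rose 1.33-fold from the 3-day knockdown to the 7-day knockdown (log2 fold change 0.41, standard error 0.09, adjusted p = 0.00284), less than the 2-fold needed for a call. The order of the receptors differed between groups. In the 3-day knockdown every EPHB4 value was above every EPHA3 value, in the control the ranges overlapped, and in the 7-day knockdown every EPHA3 value was above every EPHB4 value.

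The other Eph receptors were expressed at lower levels. EPHB2, which binds B-class ephrins, had means of 2.52 ± 0.41, 2.54 ± 0.16 and 4.29 ± 0.32 FPKM (SD, n = 3) in the control, 3-day and 7-day knockdown libraries, and rose over the 3-day knockdown (log2 fold change 0.73, adjusted p = 0.00122). EPHA4, a receptor that binds ephrins of both classes, had means of 3.78 ± 0.52, 3.97 ± 0.16 and 5.59 ± 0.49 FPKM and rose as well (log2 fold change 0.48, adjusted p = 0.00855). EPHA6 had 0.432 ± 0.039 FPKM in the 3-day knockdown and 0.903 ± 0.109 FPKM in the 7-day knockdown, with no overlap, but missed the FDR threshold (log2 fold change 0.91, adjusted p = 0.0414). EPHA5 and EPHB3 also missed it. The 3 EPHA5 means lay between 5.92 and 6.48 FPKM, and its log2 fold change of -0.06 had a 95% interval from -0.43 to 0.31 and became 0.0384 with TPM in place of FPKM.

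Summed over all 14 Eph receptors, the level was 128.6, 122.7 and 121.8 FPKM in the control, 125.0, 124.9 and 121.9 FPKM in the 3-day knockdown and 248.5, 236.0 and 226.5 FPKM in the 7-day knockdown. The A class carried most of the difference: its sum was 84.2 ± 0.8 FPKM in the 3-day knockdown and 183.5 ± 9.7 FPKM in the 7-day knockdown, while the B class had 39.8 ± 1.5 and 53.6 ± 1.8 FPKM. EPHA2 made up 33.8 to 36.1% of Eph receptor FPKM in the 3-day knockdown and 44.2 to 48.8% in the 7-day knockdown. The share of EPHB4 was 28.9 to 30.6% and then 20.1 to 21.1%, although its own level rose. These sums are descriptions of chosen genes and were not tested.

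Of the ligands, EFNB2, the B-class ephrin known from vessels and axons alike, far exceeded the others. Its FPKM was 85.7, 80.8 and 78.7 in the control, 85.5, 83.0 and 81.6 in the 3-day knockdown and 155.7, 154.3 and 131.5 in the 7-day knockdown. All 7-day values were above all 3-day values. EFNB2 rose 1.76-fold from the 3-day knockdown to the 7-day knockdown (log2 fold change 0.81, standard error 0.08, adjusted p = 1.51e-05) and was not called, since the fold stayed below 2. On chromosome 13 an antisense gene, AL138689.2, overlaps 26.2% of its exon bases, and whether reads were counted by strand is not given in the sources used here.

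EFNB3, the B-class ephrin of the nervous system midline, was the only ephrin called. It lies on chromosome 17 from 7705202 to 7711378 on the plus strand. Its FPKM was 1.77, 1.85 and 2.54 in the control, 2.14, 1.77 and 1.65 in the 3-day knockdown and 5.90, 5.51 and 4.72 in the 7-day knockdown. Every 7-day library was above every 3-day library. EFNB3 rose 2.81-fold over the 3-day knockdown (log2 fold change 1.49, standard error 0.17, adjusted p = 3.44e-05) and was called under all 18 alternatives. EFNB1, the third B-class ephrin, had means of 2.69 ± 0.51, 3.28 ± 0.39 and 4.87 ± 0.10 FPKM in the same order of groups and rose too (log2 fold change 0.56, adjusted p = 0.00839), so that all 3 B-class ephrins passed the FDR threshold.

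Of the 5 A-class ephrins, only EFNA5, a ligand of EPHA3 and other A-class receptors, passed the FDR threshold. EFNA5 was at 1.64, 1.53 and 1.64 FPKM in the 3-day knockdown and at 2.25, 2.43 and 2.66 FPKM in the 7-day knockdown, a log2 fold change of 0.58 (standard error 0.13, adjusted p = 0.00355). EFNA4 was the highest of the class, at 7.89 ± 0.52, 8.26 ± 0.30 and 9.44 ± 0.49 FPKM, with a log2 fold change of 0.19 over the 3-day knockdown (95% interval -0.01 to 0.39, adjusted p = 0.102). EFNA1 was next, at 4.79 ± 0.32, 5.24 ± 0.30 and 4.68 ± 0.06 FPKM, with a log2 fold change of -0.16 (95% interval -0.38 to 0.06). EFNA4, EFNA3 and EFNA1 lie beside each other on chromosome 1 between 155063731 and 155134857, and none of the 3 passed the threshold. A readthrough gene, AL691442.1, shares 44.7% of the exon bases of EFNA3 and 15.0% of those of EFNA4, so that reads may be split. AL691442.1 was listed at 0.314 FPKM in the second control library, at 0.116 FPKM in the third 7-day library and at 0 in all others. How shared reads were assigned is not given, so the values of EFNA3 and EFNA4 keep some uncertainty.

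The class sums of the ephrins showed the same contrast. A-class ephrins summed to 18.3 ± 0.7 FPKM in the 3-day knockdown and 19.5 ± 0.2 FPKM in the 7-day knockdown, while B-class ephrins summed to 88.5 ± 2.0 and 157.4 ± 14.2 FPKM. EFNB2 alone was 77.7 to 78.7% of ephrin FPKM in the 3-day knockdown and 81.8 to 83.8% in the 7-day knockdown.

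**Figure D2:**
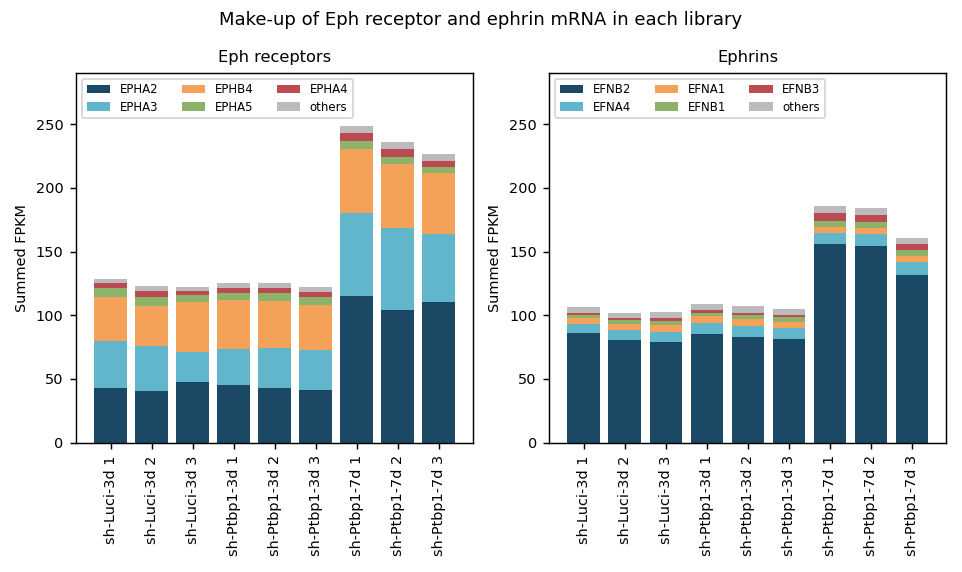
Summed FPKM of the 14 Eph receptors (left) and 8 ephrins (right) in each library, as stacked bars from 0, with the 5 leading genes of each family coloured and the rest in grey. The 7-day bars reach 226.5 to 248.5 FPKM for receptors and 160.7 to 185.7 FPKM for ephrins, and the 3-day bars of both groups stay at or below 128.6 and 108.7 FPKM.

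SLIT3, a secreted Slit, was the one gene called lower. It lies on chromosome 5 from 168661733 to 169301129 on the minus strand and was at 3.65, 3.23 and 3.12 FPKM in the control, at 3.63, 3.02 and 3.39 FPKM in the 3-day knockdown and at 0.837, 0.960 and 0.860 FPKM in the 7-day knockdown. All 7-day values were below 1 FPKM and all 3-day values above 3 FPKM. SLIT3 fell 3.49-fold from the 3-day knockdown to the 7-day knockdown (log2 fold change -1.80, standard error 0.13, adjusted p = 1.68e-06) and stayed called under all 18 alternatives. SLIT2, the most abundant Slit, was at 9.35, 8.50 and 7.74 FPKM in the control, at 8.59, 8.55 and 8.06 FPKM in the 3-day knockdown and at 6.91, 6.74 and 5.31 FPKM in the 7-day knockdown, with no overlap, but its log2 fold change of -0.41 missed the FDR threshold (adjusted p = 0.0144). The share of SLIT3 in Slit FPKM was 26.0 to 29.5% in the 3-day knockdown and 10.7 to 13.9% in the 7-day knockdown.

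The 250 bases before the RefSeq start of SLIT3 are shown as those of the only gene called lower. They hold TGACG, the first 5 letters of the cAMP response element, in capitals, 97 bases before the start, and a GC box lies after the start. This shorter motif, which also lies within every full element, was found on either strand in 24.6% of all promoters and in 13 of 43 (30.2%) here. RefSeq puts the start of SLIT3 at 169301139, outside the GENCODE v29 span given above. For 22 of the 43 promoters the first 30 bases after the start lay in a GENCODE transcript of the gene. EPHA2 and FLRT3 were among these, and SLIT3 was not. The stretch is chr5:169301140-169301389, read 5′ to 3′ on the minus strand.
SLIT3: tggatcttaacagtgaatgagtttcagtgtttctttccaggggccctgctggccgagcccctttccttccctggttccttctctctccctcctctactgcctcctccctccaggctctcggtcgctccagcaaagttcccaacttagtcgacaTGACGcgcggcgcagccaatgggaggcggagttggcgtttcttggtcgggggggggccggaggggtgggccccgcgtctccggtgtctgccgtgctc

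The Robo receptors had lower values at 7 days, and none passed the FDR threshold against the 3-day knockdown. ROBO1, the main Robo here, was at 19.2, 18.3 and 15.0 FPKM in the control, at 16.5, 17.7 and 16.5 FPKM in the 3-day knockdown and at 14.8, 13.1 and 11.6 FPKM in the 7-day knockdown (log2 fold change -0.36, standard error 0.12, adjusted p = 0.0225). ROBO2 was at 0.673, 0.652 and 0.793 FPKM and then at 0.369, 0.474 and 0.364 FPKM (log2 fold change -0.69, standard error 0.20, adjusted p = 0.0143). Neither gene had overlapping values, while those of ROBO3, a Robo family member that Slits bind poorly in mammals, overlapped (log2 fold change -0.33, adjusted p = 0.152). With median-ratio scaling or quantile normalization of the libraries in place of FPKM as deposited, ROBO1, ROBO2 and SLIT2 passed the FDR threshold as lower, and the count of genes that fell by FDR was then 4. Summed Robo FPKM was 20.5 ± 1.1 in the 3-day knockdown and 15.8 ± 1.8 in the 7-day knockdown. ROBO4, a Robo of blood vessels, was at 0.049 to 0.105 FPKM in the 3-day libraries and listed at 0 in every 7-day library.

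FLRT3, which binds UNC5 receptors and latrophilins, had the largest fold change of the 24 genes. Its gene lies on chromosome 20 from 14322988 to 14337616 on the minus strand. FLRT3 was at 0.212, 0.304 and 0.120 FPKM in the control, at 0.208, 0.279 and 0.200 FPKM in the 3-day knockdown and at 1.47, 1.66 and 1.39 FPKM in the 7-day knockdown. All 7-day values were above 1 FPKM, and no 3-day value was above 0.304 FPKM. FLRT3 rose 4.90-fold over the 3-day knockdown (log2 fold change 2.29, standard error 0.26, adjusted p = 4.00e-05), and it was called under all 17 alternatives that kept it, since a mean of at least 1 FPKM left all 3 FLRT genes out. It lies within MACROD2 on the opposite strand, with 0 exon bases in common, and MACROD2 was listed at 0 in every library except the third 3-day knockdown library, at 0.0819 FPKM.

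The 250 bases before the RefSeq start of FLRT3 are shown as those of the gene with the largest fold change, and they hold no match to any of the 6 motifs searched. Besides those named above, the motifs were an AP-1 site (TGANTCA), an ETS core (CAGGAAG) and a TATA box (TATAAA), found in 7.71%, 12.7% and 11.5% of all promoters and in 1, 3 and 2 of the 43 here. A match is a run of letters and not a shown binding site. The GC box was found in 45.0% of all promoters and in 35 of 43 (81.4%) here. The median GC content of the 250 bases was 58.0% over all promoters and 64.8% here, and its part in this difference was not tested. Several of the 43 are starts of the same gene, some with nearly the same bases, so they are not independent. The stretch is chr20:14337613-14337862, read 5′ to 3′ on the minus strand.
FLRT3: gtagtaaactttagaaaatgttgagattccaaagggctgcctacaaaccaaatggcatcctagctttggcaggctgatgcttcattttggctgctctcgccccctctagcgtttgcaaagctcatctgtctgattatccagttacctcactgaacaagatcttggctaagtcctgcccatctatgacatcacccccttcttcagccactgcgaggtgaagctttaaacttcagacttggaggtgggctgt

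FLRT1 was at 0.309, 0.233 and 0.268 FPKM in the control, at 0.285, 0.130 and 0.297 FPKM in the 3-day knockdown and at 0.587, 0.582 and 0.642 FPKM in the 7-day knockdown. Its values did not overlap, and it was called higher (log2 fold change 1.10, standard error 0.27, adjusted p = 0.00624). That call depended on single libraries and on the settings. FLRT1 was called under 9 of 17 alternatives, and under 4 of the 9 that left out a library. Its log2 fold change ranged from 0.38 to 1.40 over the alternatives. FLRT1 missed the FDR threshold without the first (adjusted p = 0.0103) or second (0.0232) 3-day knockdown library. It also missed the threshold without the first (0.0184), the second (0.019) or the third (0.0211) 7-day knockdown library. FLRT1 lies on chromosome 11 from 64103188 to 64119173 on the plus strand, within MACROD1, on the opposite strand, with 0 exon bases in common. MACROD1 was at 5.05 to 6.76 FPKM in the 3-day libraries and 9.95 to 11.6 FPKM in the 7-day libraries, and its part in the FLRT1 values was not tested. The antisense genes AP000721.2 and AP006333.1 overlap 11.7% and 13.6% of the exon bases of FLRT1. FLRT2 had 0.840 ± 0.223 FPKM in the 3-day knockdown and 1.15 ± 0.30 FPKM in the 7-day knockdown, and its values overlapped. FLRT2 made up 57.6 to 68.9% of FLRT FPKM in the 3-day knockdown and 31.4 to 41.9% in the 7-day knockdown, and FLRT3 went from 13.1 to 24.1% to 41.6 to 50.7%.

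**Figure D3:**
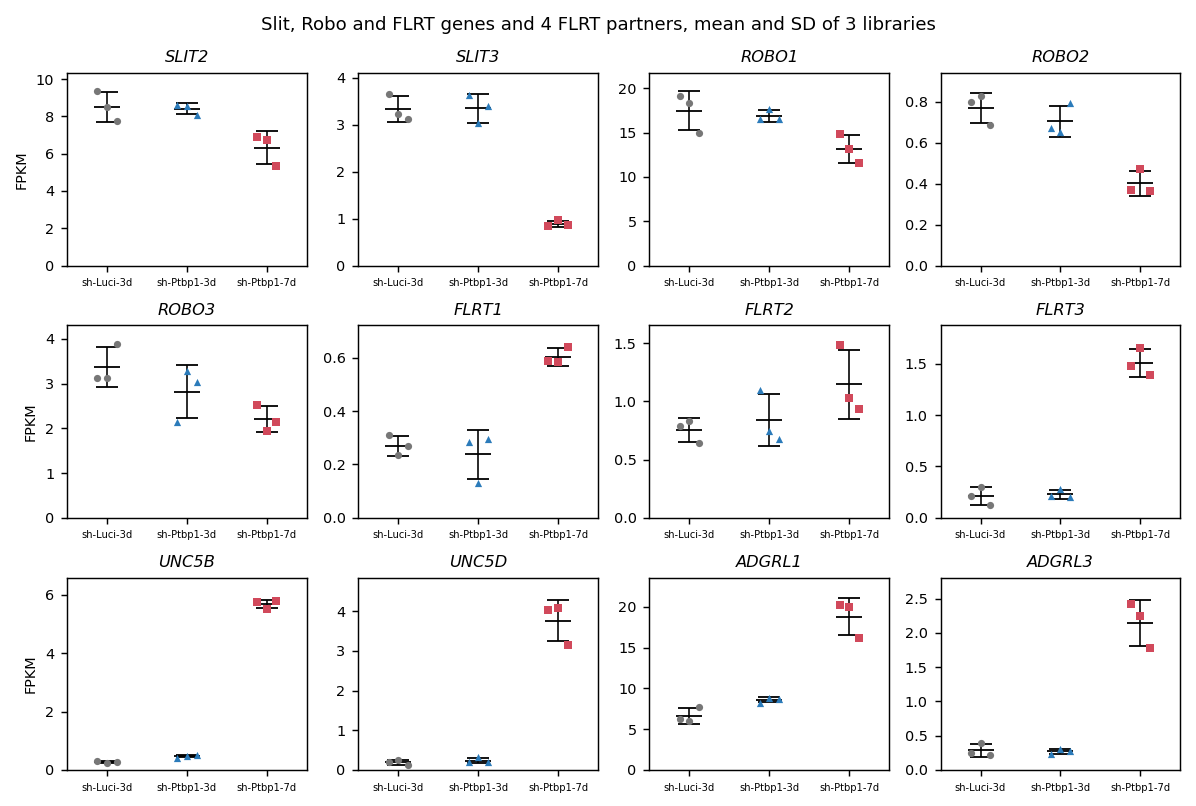
FPKM of the expressed Slit, Robo and FLRT genes and of 4 FLRT partners in the 3 groups, with a point per library and the mean and SD of 3 libraries as black bars, on linear axes from 0. SLIT3 drops from above 3 to below 1 FPKM at 7 days, FLRT3 goes from at most 0.304 to at least 1.39 FPKM, and UNC5B, UNC5D and ADGRL3 go from at most 0.504 to at least 1.78 FPKM.

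Of 12 genes of the FLRT interaction network (UNC5 receptors, latrophilins, teneurins and FGFR1), 10 were tested, 4 were called higher and 0 lower in the 7-day against the 3-day knockdown, and 6 passed the FDR threshold, all higher. Over all genes 8.31% were called higher and 5.90% lower, and 20.3% and 15.5% passed the FDR alone. The netrin receptor UNC5B was at 0.426, 0.472 and 0.504 FPKM and then at 5.76, 5.53 and 5.77 FPKM (log2 fold change 3.35, adjusted p = 7.86e-08), and UNC5D had a log2 fold change of 3.53. Of the latrophilins, ADGRL3 had 2.60 and ADGRL1 had 1.12. UNC5B was picked out by the study from these libraries, so its place in this count is no independent evidence. The families and the partner lists were also chosen with earlier results of these data known. Their counts beside the shares of all genes are therefore descriptions and no independent evidence.

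Of 24 signalling partners of Ephs and ephrins, 23 were tested, and 2 were called higher and 2 lower, with 6 rising and 6 falling by the FDR alone. The calls came to 17.4% of the list against 14.2% of all genes, and the genes past the FDR to 52.2% against 35.8%. The tyrosine kinase FYN went from 7.01 ± 0.83 to 16.3 ± 0.7 FPKM (log2 fold change 1.21, adjusted p = 4.61e-06), and CHN2, a Rac-inactivating chimaerin, from 0.147 ± 0.151 to 1.03 ± 0.22 FPKM (2.39, adjusted p = 0.00504). Those called lower were the Rac activator TIAM1 (-1.26) and the kinase ABL2 (-1.03). Of 14 partners of Slits and Robos, all tested, 0 were called higher and 2 lower, or 14.3% against the same 14.2% of all genes. GPC1, a heparan sulfate proteoglycan that binds Slits, went from 58.0 ± 2.6 to 19.0 ± 0.6 FPKM (log2 fold change -1.61, adjusted p = 4.87e-07), and the actin regulator ENAH from 27.7 ± 6.0 to 12.2 ± 2.1 FPKM (-1.17, adjusted p = 0.000189).

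Set against the control, the 7-day knockdown had fewer calls. EPHA2, EFNB3 and FLRT3 were called higher and SLIT3 lower against the control, beside 8.93% and 5.68% of all genes, with log2 fold changes of 1.33 (standard error 0.08), 1.36 (0.17), 2.41 (0.26) and -1.80 (0.13). EPHA3 had a log2 fold change of 0.98 (adjusted p = 0.000443), just short of the fold threshold, and FLRT1 had 0.93 (adjusted p = 0.0152). By the FDR alone 10 rose and 2 fell, beside 20.6% and 15.0% of all genes, the second being ROBO2, with 0.772 ± 0.074 FPKM in the control and 0.402 ± 0.062 FPKM in the 7-day knockdown (log2 fold change -0.80, adjusted p = 0.00637). Leaving out the first or second control library put EPHA3 past the fold threshold, at 1.10 and 1.07, and so did leaving out the third 7-day knockdown library, at 1.07. ROBO2 missed the FDR threshold in 9 of its 17 alternatives, with adjusted p up to 0.0272. These were 6 in which the first or second control, first or second 3-day knockdown, or the first or the third 7-day knockdown library was left out, and 3 other settings.

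**Figure D4:**
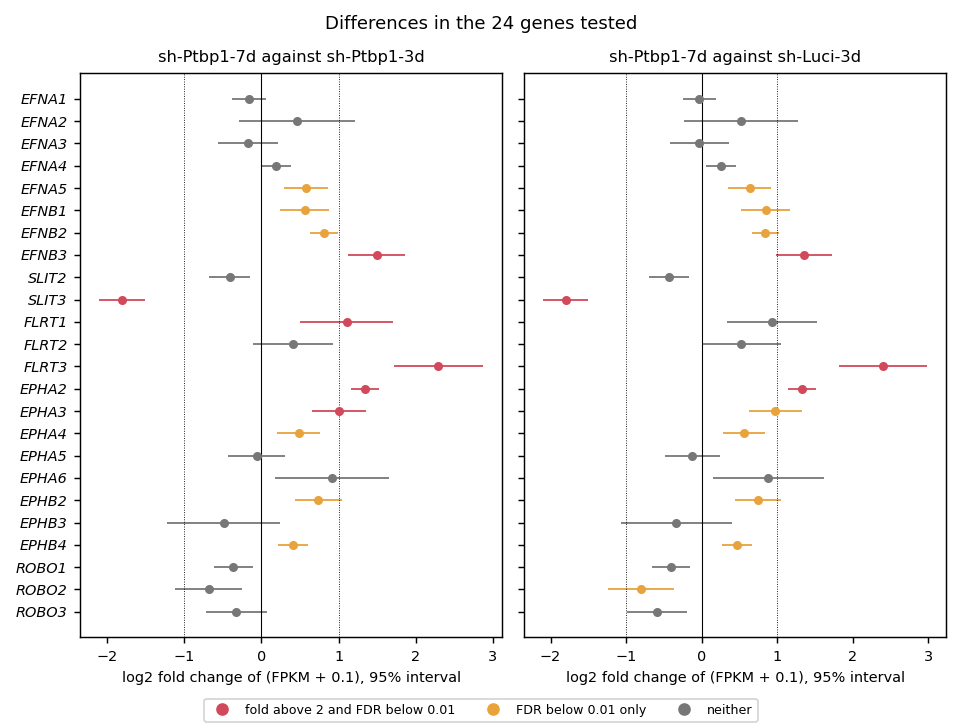
Log2 fold changes of (FPKM + 0.1) with 95% intervals for the 24 genes tested, with the 7-day knockdown set against the 3-day knockdown (left) or the control (right), with dotted lines at a 2-fold change. Genes called are red, genes past the FDR threshold alone orange and others grey. EPHA2, EFNB3 and FLRT3 are red to the right and SLIT3 red to the left in both panels, while EPHA3 and FLRT1 are red in the left panel alone.

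The 8 genes below the filter were SLIT1, EPHA1, EPHA7, EPHA8, EPHA10, EPHB1, EPHB6 and ROBO4. EPHA7, EPHA10 and EPHB6 were above 0 only in the third 3-day knockdown library, at 0.206, 0.109 and 0.115 FPKM, the library with 364 genes of its own. SLIT1 was also highest there, at 0.237 FPKM against at most 0.096 FPKM elsewhere. EPHA8, EPHB1 and EPHA1 reached at most 0.0211, 0.0801 and 0.0393 FPKM in any library.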

How the data were processed

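The authors deposited FPKM values per gene for 9 U251 libraries, along with coordinates of the loci that StringTie assembled, whose values of other kinds were not used. The submitters' processing notes name HISAT2 and GRCh38. Versions are not given in the sources used here. The FPKM table gives no counts, so depth per library is unknown and no counting intervals are given. Groups came from the sample labels. No assembled locus overlapped a gene described here, and 49.6% of assembled exons matched GENCODE v29 exons exactly, whose coordinates were used.

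For the 15551 genes whose mean reached 0.1 FPKM, a model of the 3 groups with an intensity trend was fitted to log2(FPKM + 0.1) with limma 3.58.1 (R 4.3.3). The fold threshold and the FDR thresholds of both comparisons the paper made follow it, and its stricter FDR was also applied to the 7-day knockdown against the control. The fit was checked on simulated data with independent noise and changes well past the fold threshold, which does not bear on calls near that threshold. Named genes were all 32, in full those called or the 2 highest of each class, and partners past the thresholds. The genes and lists were chosen with earlier results of these data known. Promoters came from RefSeq (GRCh38.p14), with 250 bases before and 50 after each start, for 30 of 32 genes. Plots were made in Python 3.11.15 (matplotlib 3.10.9). Alternatives were other pseudocounts, filters and scalings, the compared groups alone, a replicate block, and leaving out each library.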

Additional observations from a re-analysis of the deposited data

How the results depend on the processing

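The number of members called in the 7-day against the 3-day knockdown was 6, and 4 to 6 over 18 alternatives, with 4 to 6 when 1 library was left out. Against sh-Luci-3d it was 4, with 3 to 5 over all alternatives and 4 to 5 with 1 library left out. By the FDR alone, the 12 members against sh-Ptbp1-3d became 7 without the second sh-Ptbp1-3d library or without the second sh-Ptbp1-7d library. Near-zero fold changes turned positive in some settings. EPHA5 against sh-Ptbp1-3d was 0.0384 with TPM, and between -0.178 and 0.0745 with 1 library left out (the latter without sh-Ptbp1-7d replicate 3). Against sh-Luci-3d, EPHA5 lay between -0.303 and 0.0153 (again without that library), EFNA3 between -0.159 and 0.0965 (without that library, and 0.0698 without sh-Luci-3d replicate 3), and EFNA1 between -0.0854 and 0.00376 (without sh-Luci-3d replicate 2), while TPM gave EFNA3 0.0472 and EFNA1 0.0497. The cause was not tested.

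Scaling moved the median of all genes against sh-Ptbp1-3d by 0.10 with TPM, -0.08 with median ratios and -0.10 with quantiles, and higher calls were 58.5% of all calls as deposited, 65.8% with TPM, 50.8% with median ratios and 49.0% with quantiles. Against sh-Luci-3d the quantile shift was -0.11. Libraries with the same replicate number did not deviate together (correlations from -0.03 to 0.05), and with the replicate number as a block the members called stayed at 6 and 4, and those past the FDR alone went from 12 to 13 in both. With 3 libraries a group, exact permutation could not reach p below 0.1, and without counts the precision at low FPKM is unknown.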
